A study of Homo sapiens with 38 samples.

Results

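The retroviral MER families are the 269 entries of a small RNA count table whose class prefix is ERV (endogenous retrovirus) and whose repeat name starts with MER. The table has 22549 features, of which 1021 carry the ERV prefix. The 269 entries were chosen by name, and no measured value entered the choice. Each entry pools every annotated genomic copy of 1 repeat family or of 1 combination of joined families. Together they hold 77190 loci and 56.1 Mb of annotated sequence, with between 1 and 3703 loci per entry.

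DiFi is an established human line from a colorectal carcinoma, and the RNA was taken from particles its cells shed into the medium. Small RNA libraries were made after treatment with AlkB enzymes, which remove base methylations that block reverse transcription, and this step was common to all groups. Small extracellular vesicles (sEV) are membrane vesicles, while exomeres and supermeres are smaller particles without a membrane. The purpose of the design was to compare culture conditions, isolation methods and fractions.

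All gradient, FPLC and 3D UC groups used medium of DiFi cells grown in hollow fibre bioreactors (3D). The labels give 4 such pools of about 400 mL, which were split into 60 mL aliquots for the different methods. Gradient pools 12, 9_10 and 6_7 are fractions of a cushion density gradient, with 4 libraries each. Light and heavy vesicle pools and a pool without vesicles are named in the labels, but they are not tied to these numbers. FPLC supermere and FPLC exomere were separated by size-exclusion chromatography, with 4 libraries each. The 3D UC supermere, exomere and sEV groups came from serial ultracentrifugation (UC), with 3 libraries each. The 2D UC supermere, exomere and sEV groups, also with 3 libraries each, came from flat plates kept for 48 h without serum, from 3 pools of 1360 mL that were concentrated on a filter before the spins. In UC the sEV pellet was spun at 167000 g for 4 h, the exomere pellet at 167000 g for 16 h and the supermere pellet at 367000 g for 16 h. Culture format, medium pools, serum-free time and concentration step all differ together between 2D and 3D and cannot be told apart. The replicate letters are not tied to pools, so every p-value refers to the spread among libraries, which may be technical. In such preparations fewer particles of a kind and less RNA per particle cannot be told apart.

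MER stands for medium reiterated frequency repeat, an early name for repeats of intermediate copy number in the human genome. The families counted here are remnants of retroviruses that entered the germ line long ago. Most copies are solitary long terminal repeats (LTRs), which once held the viral promoter, and others keep parts of the internal coding region, marked by the ending "-int". They fall into the classes ERV1, ERVK and ERVL by the kind of virus from which they derive. Several are known for regulatory roles in human cells: MER61 LTRs carry p53 sites, and a MER39 LTR drives prolactin in the decidua. A MER21A LTR serves as a placental promoter of CYP19A1, the aromatase gene.

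The retroviral rows carry no sequence in the deposited table. Annotated miRNAs that overlap MER loci do carry one, and they show where a processed small RNA of known sequence is read from inside a family. The 4 with the most counts follow as deposited, 5′ to 3′, with the seed (bases 2 to 8) in capitals.
hsa-miR-625-5p: aGGGGGAAagttctatagtcc
hsa-miR-625-3p: gACTATAGaactttccccctca
hsa-miR-548bc: aAAAACTGtgattacttttgc
hsa-miR-4484: aAAAGGCGggagaagcccca
The 2 arms of miR-625 lie at chr14:65471116-65471136 and chr14:65471153-65471174 (GRCh38, plus strand), the first inside and the second across the edge of a MER52D copy on the opposite strand. The miR-548bc locus at chr17:39297457-39297477 lies in a MER21C copy on the same strand, and miR-4484 at chr10:125819803-125819822 lies in a MER50B_MER50-int copy on the same strand.

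These miRNAs have their own rows, and whether their reads also entered the MER rows is not known. In all, 52 of the 77190 loci, 0.0674%, overlapped an entry of another small RNA class in the table. The 3p arm of miR-625 had 27275 counts over all libraries, its 5p arm 550, miR-548bc 190 and miR-4484 55. For miR-625-3p the level was 247 ± 62.5 CPM (counts per 1000000 counts of the library) in 3D UC exomere, against 147 ± 30.3 CPM in 2D UC exomere (SD, n = 3 each). Summed MER counts in the same libraries were 380 ± 93.8 CPM in 3D UC exomere, against 4889 ± 2633 CPM in 2D UC exomere (SD, n = 3 each). In supermere the miRNA was at 46.2 ± 0.127 CPM in 3D (SD, n = 2), against 134 ± 49.0 CPM in 2D (SD, n = 3), and the sum of the families was lower in 3D too. In FPLC supermere the miRNA was at 14.2 ± 10.6 CPM, against 227 ± 130 CPM in FPLC exomere (SD, n = 4 each), where the sum was again lower in supermere.

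Library totals ran from 81079 counts in gradient pool 9_10 to 16991360 in 2D UC sEV, and 3D UC supermere A held 46 counts in all, none of them MER. That library is left out below, so 37 libraries remain and 3D UC supermere has n = 2. Summed MER counts per library ran from 44.5 to 50962, with a median of 1026. All 5 intestinal epithelial miRNAs checked (miR-200c, miR-141, miR-192, miR-194 and miR-215) had counts in every group, with summed levels from 36.7 CPM in an FPLC supermere library to 100321 CPM in a gradient pool 9_10 library. The hepatocyte miRNA miR-122 stayed at or under 56.0 CPM in every library. The 3 blood cell miRNAs summed to at most 658 CPM, in gradient pool 9_10, and to 388 to 541 CPM in 2D UC sEV, and the 3 muscle miRNAs to at most 98.0 CPM, in FPLC exomere.

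The summed MER level differed between libraries by 536-fold, from 14.1 to 7555 CPM, with a median of 414 CPM. It was highest in 2D UC exomere at 4889 ± 2633 CPM (SD, n = 3), where libraries A, B and C held 7555, 4821 and 2291 CPM. Gradient pool 9_10 came next at 3901 ± 2811 CPM (SD, n = 4), with 4999, 7372, 1728 and 1506 CPM in libraries A to D. Replicates within these groups differed severalfold, and libraries C and D of gradient pool 9_10 lay inside the range of the groups that follow.

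2D UC supermere averaged 2963 ± 2011 CPM (SD, n = 3), with 3744 and 4467 CPM in A and B and 679 CPM in C. 2D UC sEV was the most even of the upper groups, at 1266 ± 257 CPM (SD, n = 3). FPLC exomere had 1215 ± 699 CPM (SD, n = 4), with 535 CPM in its lowest library, A, and 2053 CPM in its highest, D. The low 2D UC supermere library C fell below every 2D UC sEV library, the lowest of which held 1050 CPM.

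The 3D UC groups lay lower, at 380 ± 93.8 CPM in exomere and 345 ± 73.9 CPM in sEV (SD, n = 3 each), and at 338 and 58.8 CPM in supermere B and C. Gradient pool 12 had 92.8 ± 38.7 CPM and FPLC supermere 77.9 ± 58.3 CPM (SD, n = 4 each). Gradient pool 6_7 was lowest and tightest, at 49.5 ± 2.69 CPM (SD, n = 4), with every library between 47.2 and 52.6 CPM. In this order of 11 groups only 1 neighbouring pair had ranges that did not overlap, FPLC exomere above 3D UC exomere.

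**Figure D1:**
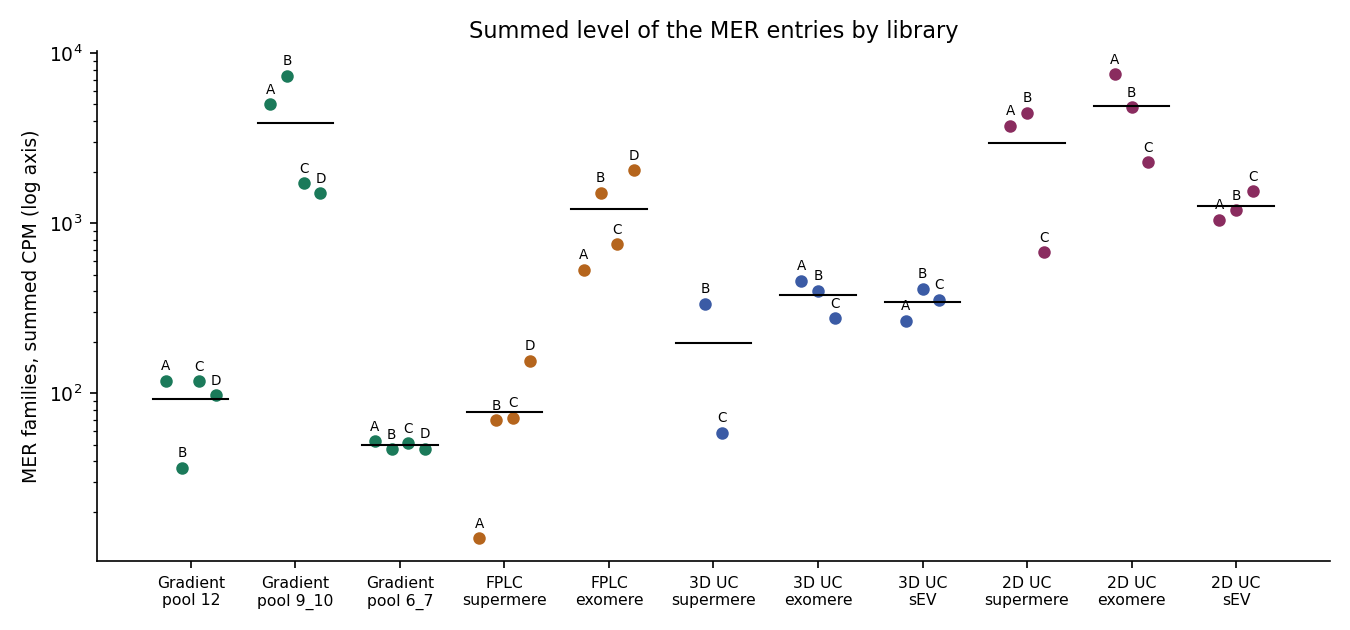
Summed CPM of the 269 MER entries in each of 37 libraries (points with replicate letters, log axis), with group means as bars. Libraries span 14.1 to 7555 CPM, and gradient pool 9_10 sits between 1506 and 7372 CPM while gradient pool 6_7 sits between 47.2 and 52.6 CPM.

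As a share of all ERV counts, the families moved far less. The median over 37 libraries was 19.0%, and 30 libraries lay between 17 and 22%. MER entries make up 19.2% of the annotated ERV length, 13.7% of ERV loci and 26.3% of ERV rows. Over all libraries pooled they held 19.0% of ERV counts, close to their share of the length. Of the other retroviral sets, the MaLR families (MLT, MST and THE1, nonautonomous LTR elements related to ERVL) held 38.0% of ERV counts on 35.9% of the length. HERV entries held 5.19% of ERV counts on 6.72% of the length.

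The share was steady where counts were many. In the 19 libraries with over 1000 MER counts it ran from 17.5 to 23.8%, and in the other 18 from 11.8 to 36.5%. 3D UC exomere stood at 20.3% ± 0.105 and 3D UC sEV at 19.9% ± 1.43 (SD, n = 3 each). 2D UC exomere stood at 18.8% ± 0.344, 2D UC supermere at 19.0% ± 0.724 and 2D UC sEV at 18.5% ± 0.886 (SD, n = 3 each). The 3 libraries of 3D UC exomere, at 20.2 to 20.4%, all lay above the 3 of 2D UC exomere, at 18.4 to 19.1%. This gap is a description, since sums over the families were given no test.

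Gradient pool 6_7 had the lowest share, 14.6% ± 1.89 (SD, n = 4), with 15.3, 15.2, 11.8 and 16.1% in libraries A to D. The other 3D preparations were higher, apart from gradient pool 12 D at 15.4%. The 95% Wilson interval of the lowest library, C, was 9.49 to 14.9% on 65.5 MER counts, and that of the highest, D, was 14.0 to 18.3%. HERV entries took 15.2% ± 5.36 of ERV counts in gradient pool 6_7, against 4.41% ± 0.105 in 3D UC sEV (SD, n = 4 and 3). MaLR entries took 27.4% ± 5.57 in gradient pool 6_7, against 36.7% ± 0.363 in 3D UC sEV. Intervals here cover counting error only, because reads copied by PCR are not independent molecules.

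A pair of libraries stood above the rest in share. Gradient pool 12 B reached 36.5%, with a Wilson interval of 28.1 to 44.9%, on 44.5 MER counts, of which MER4-int_MER4A1 alone held 24.7%. Without library B the gradient pool 12 mean was 17.7%, against 22.4% ± 9.53 (SD, n = 4) with it. FPLC exomere A reached 23.8% on 2016 counts, yet only 44 of the 269 entries had a count there, against 146 to 181 entries in FPLC exomere B, C and D. The part that library complexity plays in that share was not tested.

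**Figure D2:**
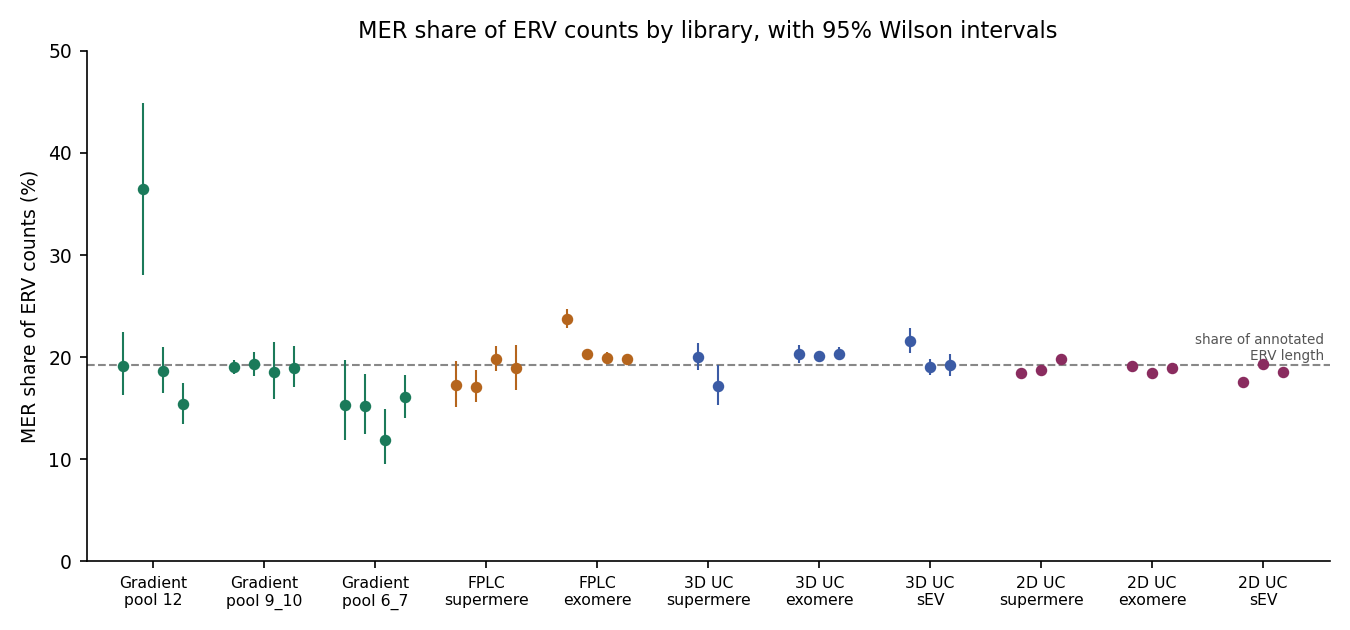
MER share of ERV counts in each library (points, replicates in letter order within a group) with 95% Wilson intervals, and the MER share of the annotated ERV length as a dashed line at 19.2%. The 4 libraries of gradient pool 6_7 lie between 11.8 and 16.1%, and gradient pool 12 B lies at 36.5%.

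Counts were spread over many families. A 2D UC exomere library detected 227 to 248 entries and a 2D UC sEV library 190 to 222. A gradient pool 6_7 library detected 17 to 49. One entry, MER4-int_MER4A1, had counts in all 37 libraries, and 36 entries had counts in all 11 groups. The 10 most abundant entries took 25.6 to 30.6% of MER counts in the 2D UC libraries and 49.5 to 81.7% in gradient pool 6_7. Breadth did not follow the number of MER counts throughout. 3D UC exomere C detected 60 entries on 3260 MER counts, against 147 and 139 in 3D UC exomere A and B on 1559 and 6174 counts. By contrast, 3D UC sEV C detected 163 entries on 1026 counts.

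The counts of an entry tracked the length of its annotated copies. Across the 269 entries, Spearman's rho between counts and annotated length was 0.85 to 0.94 in the 9 libraries of 2D UC. It was 0.27 to 0.37 in the 4 libraries of gradient pool 6_7, where most entries are at 0. These values are across entries of 1 library, which share its depth, and carry no p-value. Of the MER loci, 44.3% overlap a GENCODE v29 gene and 4.28% an exon, and 38.5% of those in a gene share its strand.

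**Figure D3:**
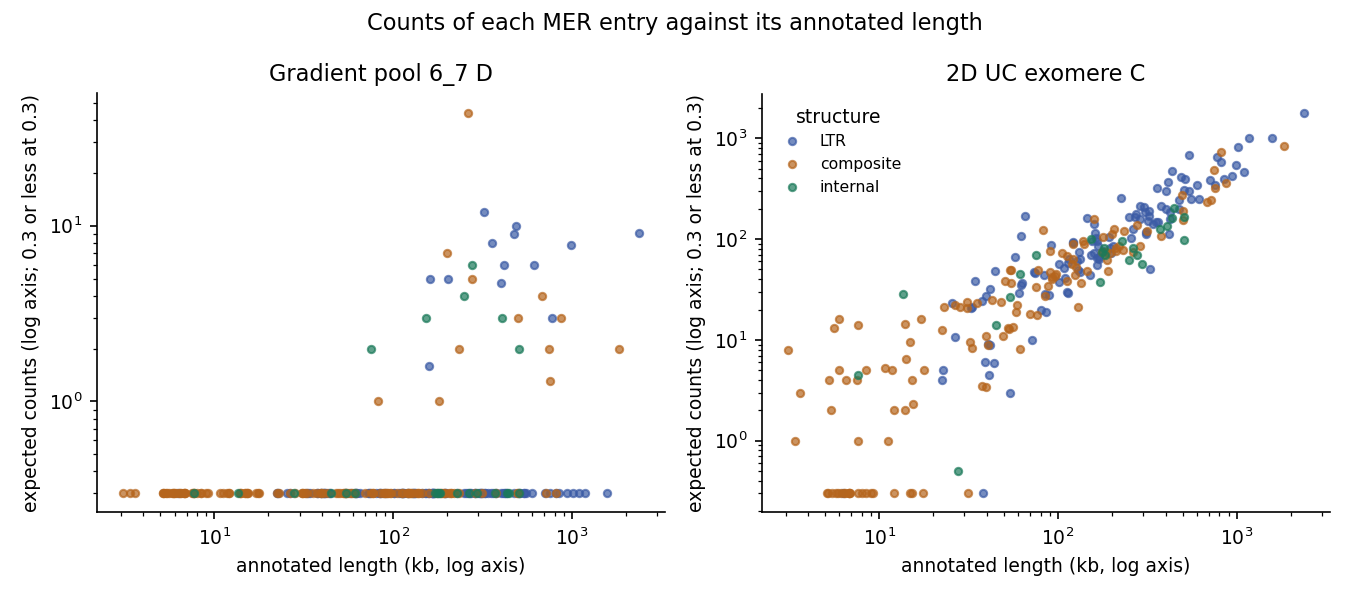
Expected counts of each of the 269 MER entries against the annotated length of its loci in kb (both axes logarithmic, values of 0.3 or less drawn at 0.3), in gradient pool 6_7 D (182.5 MER counts) and 2D UC exomere C (30181 MER counts), coloured by structure. Counts rise with length in 2D UC exomere C (rho 0.94), while most entries lie at the floor in gradient pool 6_7 D (rho 0.37).

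Per length, solitary LTR entries were above entries that hold internal sequence. The 118 LTR entries account for 61.4% of the MER length and 71.9% of MER counts. The 128 composites, which join an LTR with an internal part, account for 29.4% of the length and 22.4% of counts. The 23 internal entries account for 9.14% of the length and 5.71% of counts. Among 142 entries with at least 100 kb, which hold 91.9% of MER counts, the median level in 2D UC exomere was 82.8 CPM per Mb for LTRs, 53.3 for composites and 55.7 for internal parts. In 2D UC sEV the medians were 23.5, 15.8 and 11.4 CPM per Mb in the same order.

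By class, ERVL entries were above ERV1 entries per length. The 44 ERVL entries hold 18.2% of the MER length and 23.4% of counts, while the 210 ERV1 entries hold 75.2% of the length and 70.1% of counts. The 14 ERVK entries, MER9 and MER11 with their composites, hold 6.51% of the length and 6.52% of counts. In 2D UC exomere the median level was 101 CPM per Mb for ERVL, 70.2 for ERV1 and 56.3 for ERVK among the entries with at least 100 kb. One short LTR entry, MER129, was assigned to no class.

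Gradient pool 6_7 held more internal sequence in libraries B, C and D, on few counts and with no test. LTR entries took 56.4% ± 9.51 of MER counts there, composites 33.1% ± 6.18 and internal parts 10.5% ± 4.92 (SD, n = 4). In 3D UC sEV they took 69.8% ± 1.94, 25.4% ± 0.756 and 4.79% ± 1.70 (SD, n = 3). Gradient pool 6_7 A, at 69.7% LTR and 4.04% internal, lay within the range of 3D UC sEV for both. One composite, MER4C_MER4-int, an ERV1 entry of 53 loci, took 21.4 and 24.1% of all MER counts in gradient pool 6_7 C and D.

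The entry with the highest mean CPM was MER21C, an ERVL LTR with 3703 loci. It held 249 ± 106 CPM in 2D UC exomere, 156 ± 109 in 2D UC supermere and 63.0 ± 15.3 in 2D UC sEV (SD, n = 3 each). In gradient pool 9_10 it held 184 ± 162 CPM, against 1.58 ± 0.779 CPM in gradient pool 6_7 (SD, n = 4 each). MER52A, an ERV1 LTR with 1099 loci, followed with 260 ± 226 CPM in 2D UC exomere and 51.8 ± 3.18 CPM in 2D UC sEV (SD, n = 3 each). After these by mean CPM came MER21B, MER11C, MER4-int_MER4A1, MER57A1_MER57-int, MER52D, MER4A1, MER68 and MER21A.

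Among the 142 entries of at least 100 kb the order per Mb was another. MER31B was highest at 59.7 CPM per Mb over the mean of the 11 groups, then MER31A at 52.8, MER68 at 51.3 and MER52C at 51.2. MER52A stood at 41.8 and MER21C at 29.3 CPM per Mb. Shorter entries reached higher values, such as MER88 at 165 and MER87B at 113 CPM per Mb, named after their values were seen. MER110 was lowest of the 142 entries, with 29.1 CPM per Mb in 2D UC exomere, where MER31B had 201.

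**Figure D4:**
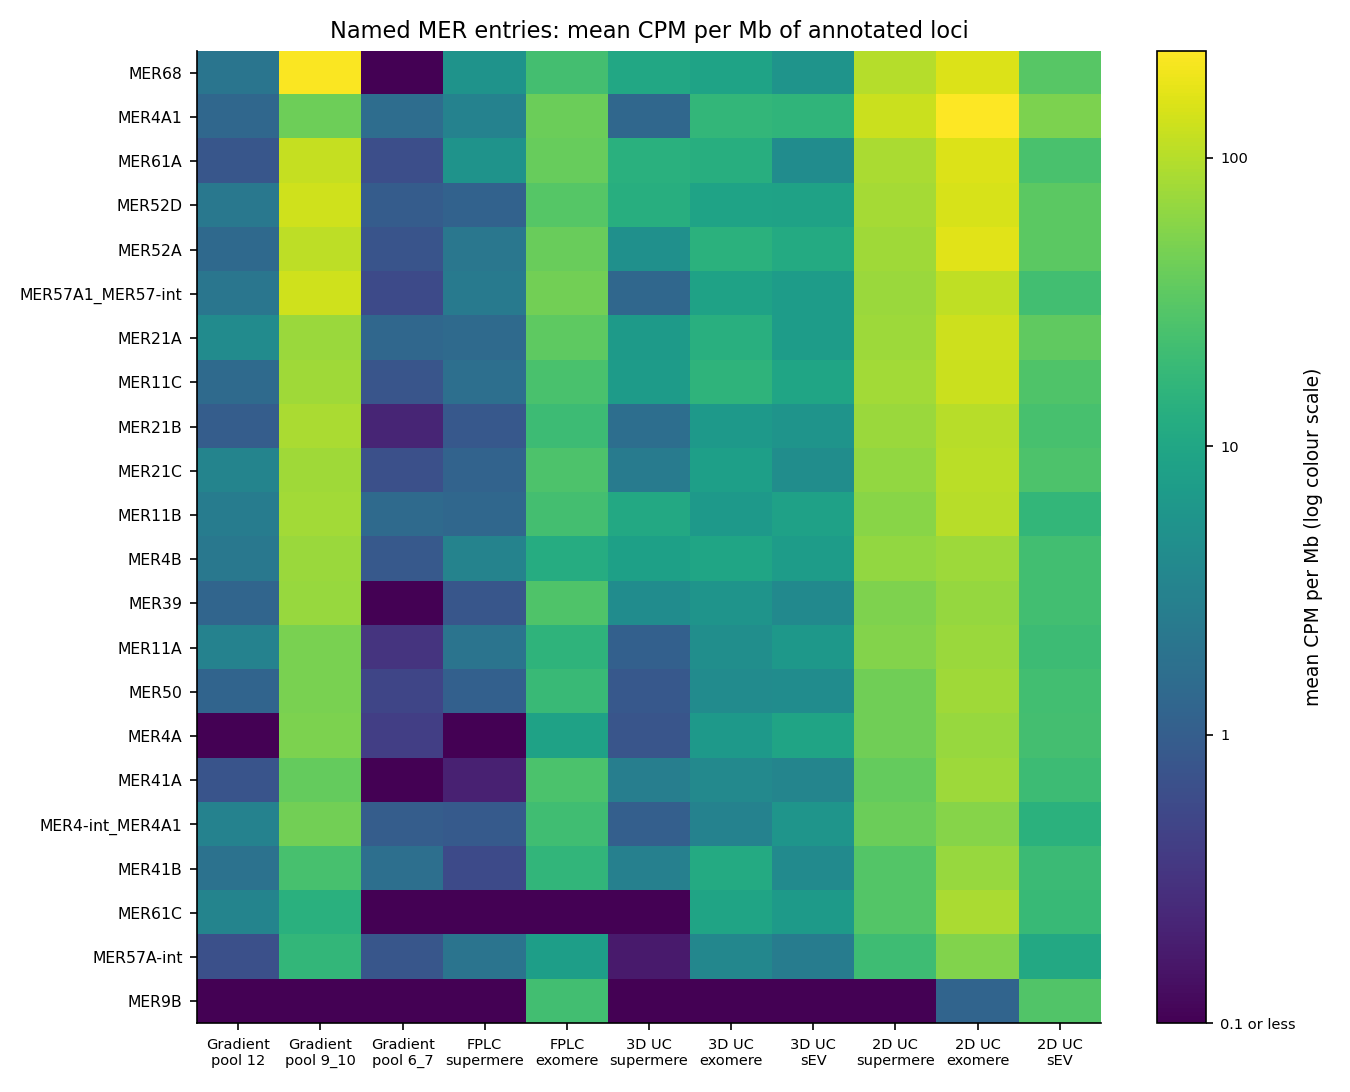
Mean CPM per Mb of annotated loci (log colour scale, 0.1 or less in the darkest colour) for 22 named MER entries in the 11 groups, entries ordered by their mean. Leaving out MER9B and MER61C, which are shorter than 100 kb, values run from 53.9 to 235 in 2D UC exomere and from 17.1 to 224 in gradient pool 9_10, against 0 to 1.69 in gradient pool 6_7.

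Some entries have 1 locus, 28 in all, so that their counts have a position. The composite MER66C_MER66-int_MER66D is read from chr6:81019763-81027421 (GRCh38, minus strand), outside any GENCODE gene, and had 75 counts over all libraries. The composite MER74A_MER74C_HERVL74 lies at chr2:192762599-192769133 (minus strand), in an intron of the lincRNA gene PCGEM1 on the other strand, and had 58 counts. The composite MER21C_MER77B_MER21-int lies at chr11:118670579-118675840 (minus strand), in an intron of TREH, the trehalase gene, on the same strand, and had 35 counts. Reads that match several copies appear divided, since 17.1% of the MER values are not whole numbers (tolerance 1e-06), so reads from related copies may enter these values too.

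Differences between groups were tested for every feature that passed a filter on low counts, 8979 in all, of which 218 were MER entries. The filter used all 11 groups at once, so an entry could pass through the groups where it was high. An entry at 0 throughout a group could only be called lower in that group. The 51 MER entries that did not pass hold 0.531% of MER counts. Tests used edgeR's quasi-likelihood method on library totals, and a feature was called at a Benjamini-Hochberg adjusted p below 0.05 over all 8979. The same test was repeated with each library scaled to its own ERV total. The first asks whether an entry changed as a share of the library, the second whether it changed as a share of the retroviral counts. Counts from DESeq2, from TMM factors and from fits of fewer libraries are of MER entries only, without a share over all features. The scaling moves all features at once: in 3D against 2D UC exomere their median log2 fold change was −4.27 on library totals and −1.05 on ERV totals. In FPLC supermere against exomere it was −3.77 and −0.41, and in gradient pool 9_10 against 6_7 it was 5.32 and 0.00.

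The 3D UC exomere against 2D UC exomere comparison sets the same pellet side by side. The cultures also differ in medium pools, serum-free time and concentration step. MER entries were lower in 3D UC exomere: 127 of the 218 tested fell and 0 rose, beside 48.6% of all features tested that fell. The median log2 fold change was −4.00 over the MER entries and −4.27 over all features. The 127 are 58.3% of the MER entries tested, so the decline was shared with features of other classes. On ERV totals 2 entries were called, MER4C and MER66B_MER66-int, both lower, beside 6.37% of all features in either direction, and the MER median was −0.37.

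MER21C held 27.1, 13.1 and 16.2 CPM in 3D UC exomere A, B and C, against 347, 264 and 137 CPM in 2D UC exomere. The groups did not overlap, and it fell by 3.72 on the log2 scale (SE 1.10, edgeR adjusted p = 0.0100). MER52A held 22.2 ± 12.7 CPM in 3D UC exomere, against 260 ± 226 CPM in 2D UC exomere, a log2 fold change of −3.56 (SE 1.10, edgeR adjusted p = 0.0117). On ERV totals both had log2 values above 0, at 0.012 and 0.32, and neither passed.

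The entries that stood out were those at 0 in all 3D UC exomere libraries. MER4C, an ERV1 LTR with 485 loci, had 42.3, 23.5 and 5.77 CPM in 2D UC exomere A, B and C. It was at least 196-fold lower in 3D UC exomere, taken against 3 counts over the group (edgeR adjusted p = 0.000759). MER66B_MER66-int, a composite of 43 loci, had 31.4, 21.2 and 9.21 CPM in 2D UC exomere and was at least 180-fold lower in 3D UC exomere (edgeR adjusted p = 0.00121). MER110A had 10.6 ± 6.45 CPM in 2D UC exomere (SD, n = 3) and was at least 86.5-fold lower (edgeR adjusted p = 0.00500). These bounds, and those below, take counts as independent reads. Entries with counts averaged 10.6, 44.4 and 54.3 counts in 3D UC exomere A, B and C, so the bounds may be too high.

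Among other named LTR entries, MER41A, MER21A, MER39, MER61A, MER11A, MER11B and MER11C passed and fell in 3D UC exomere. MER41A held 5.50, 3.73 and 0.587 CPM in 3D UC exomere A, B and C, against 111, 52.8 and 29.9 CPM in 2D UC exomere. Its log2 fold change was −4.30 (SE 1.40, edgeR adjusted p = 0.0150). MER41B had a log2 fold change of −2.58 (edgeR adjusted p = 0.0783) and MER61C one of −3.29 (edgeR adjusted p = 0.146), and neither passed. On ERV totals the signs of MER11C, MER21A, MER39 and MER61A were the other way.

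3D UC exomere C, the library with counts for 60 entries, bears on these results, and the part of its narrow breadth was not tested. The count of 127 depended on single libraries: it was 9 without 3D UC exomere C, 59 without 3D UC exomere B and 62 without 2D UC exomere A. Y RNA took 75.3% ± 8.73 of the counts in 3D UC exomere, against 9.33% ± 0.449 in 2D UC exomere (SD, n = 3 each), and its part in the result on library totals was not tested. With TMM factors, which rest on the features as a whole, the median over all features was −1.77 and 7 MER entries were called.

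In supermeres the same direction was seen with fewer calls. In 3D UC supermere against 2D UC supermere, 41 MER entries fell and 0 rose, beside 7.47% of all features that fell. The median log2 fold change was −5.71 over the MER entries and −5.56 over all features. As ratios of counts pooled by group, with values under 3 counts raised to 3, the MER median was −3.07. That median leaves out 5 entries at or under 3 counts in both groups. In both 3D UC supermere libraries 116 entries were at 0. On ERV totals 0 entries were called by edgeR, beside 3.04% of all features. There 9 MER entries were at an unadjusted p under 0.05, beside 788 of all 8979 features. The MER median on ERV totals was −3.70, against −4.25 over all features, and includes entries at 0 in 3D UC supermere. DESeq2 with its own size factors called 28 lower.

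MER39B, an ERV1 LTR, had 0.241 and 0 CPM in 3D UC supermere B and C, against 24.8, 42.0 and 3.18 CPM in 2D UC supermere A, B and C (log2 fold change −9.95, SE 2.77, edgeR adjusted p = 0.0161). MER51B_MER51-int was at 0 in both 3D UC supermere libraries, against 21.5 ± 16.2 CPM in 2D UC supermere (SD, n = 3), at least 33.5-fold lower (edgeR adjusted p = 0.0137). MER34A was likewise at 0, against 19.6 ± 13.8 CPM in 2D UC supermere, at least 30.4-fold lower (edgeR adjusted p = 0.0232). The groups did not overlap for these 3 entries. The count of 41 was 12 without 2D UC supermere A and 4 without 2D UC supermere B. It was 4 without 3D UC supermere B and 0 without 3D UC supermere C, which leave that group a lone library assumed to vary like the others.

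In sEV no entry passed on either scaling, though 208 of the 218 log2 fold changes on library totals were below 0. In 3D UC sEV against 2D UC sEV, edgeR called 0 MER entries, beside 0.813% of all features, and DESeq2 called 0. At an unadjusted p under 0.05 edgeR had 20 of the 218 MER entries, beside 1172 of all 8979 features. The summed MER level was 267, 414 and 355 CPM in 3D UC sEV A, B and C, against 1050, 1197 and 1550 CPM in 2D UC sEV, with no overlap. MER entries had a median log2 fold change of −1.88 and all features one of −1.68. For 111 of the 218 entries the ranges of the 2 groups did not overlap, a count not taken over all features. A fit of these 6 libraries alone, whose spread is not shared with other groups, called 57, given without a share over all features. On ERV totals edgeR called 0, beside 5.07% of all features, and the MER median was 0.01. There 2 MER entries were at an unadjusted p under 0.05, beside 1060 of all 8979 features.

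**Figure D5:**
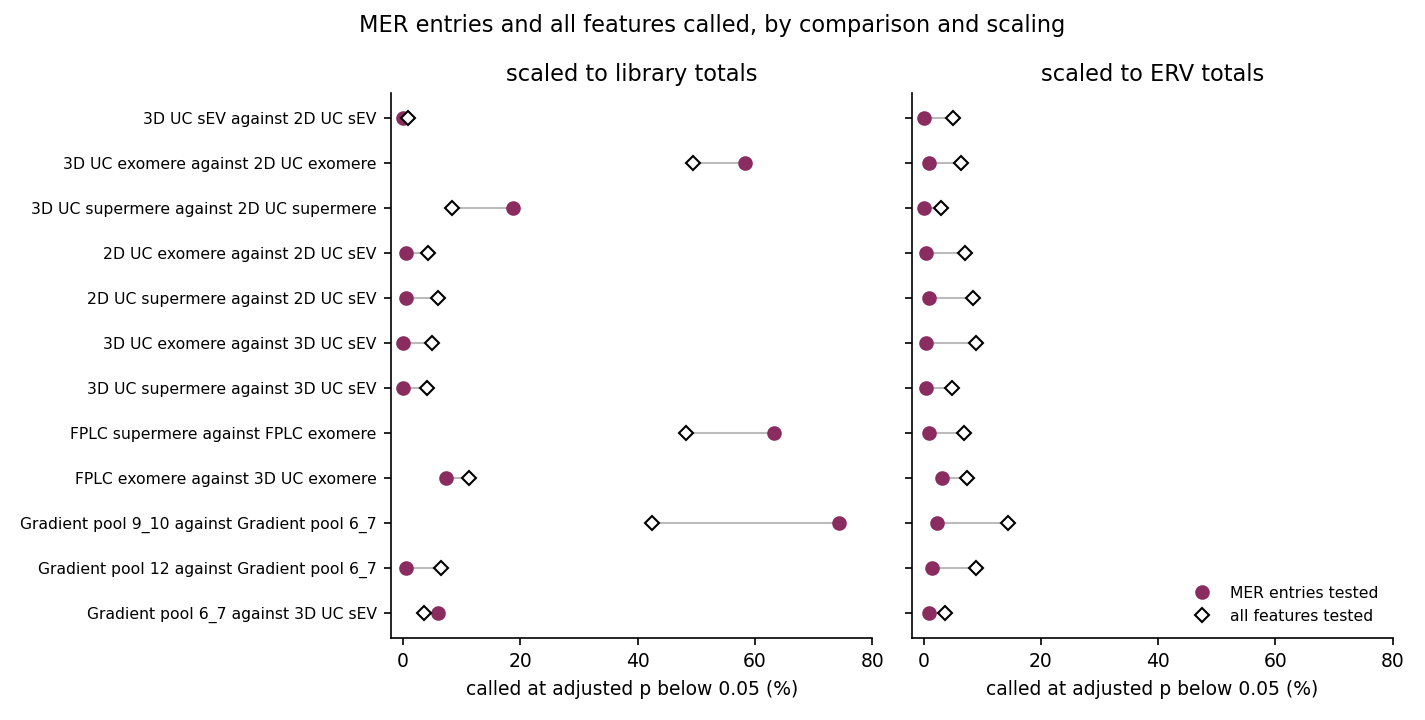
Percent of the 218 MER entries tested (filled points) and of all 8979 features tested (open diamonds) called in either direction at an adjusted p below 0.05 in the 12 comparisons, with libraries scaled to their totals (left) or to their ERV totals (right). On library totals 74.3% of MER entries were called in gradient pool 9_10 against 6_7 and 58.3% in 3D against 2D UC exomere, while on ERV totals no comparison called more than 3.21%.

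Within 2D UC the fractions differed little beyond the spread of the shared fit. In 2D UC exomere against 2D UC sEV 1 MER entry rose, beside 1.12% of all features, and in 2D UC supermere against 2D UC sEV 1 rose, beside 1.40%. It was the same entry, MER65-int_MER65D, a composite of 17 loci, named here after its values were seen. It held 4.30, 3.67 and 3.74 CPM in 2D UC exomere, 5.64, 0.855 and 0.902 CPM in 2D UC supermere, and 0 CPM in the 3 libraries of 2D UC sEV. The edgeR adjusted p was 0.0374 in exomere and 0.0440 in supermere. Without any 1 of the 6 libraries of exomere and sEV the first call was lost, and the second was lost without 2D UC sEV A, B or C or 2D UC supermere A.

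The levels leaned one way all the same. Their sum was 3.86 times as high in 2D UC exomere as in 2D UC sEV, and the lowest exomere library, at 2291 CPM, lay above the highest sEV library, at 1550 CPM. For 122 of the 218 entries the exomere and sEV ranges did not overlap, a count not taken over all features. MER entries had a median log2 fold change of 1.93 and all features one of 1.82. A fit of these 6 libraries alone called 73 entries, given without a share over all features. In 2D UC supermere against 2D UC sEV the MER median was 1.23, beside 1.12 over all features. For 9 entries the ranges did not overlap, again a count of MER entries only.

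On ERV totals the exomere comparison called 1 entry, MER65-int_MER65D, beside 7.01% of all features. The supermere comparison called 2 entries, beside 8.46%. These were MER65-int_MER65D, higher in 2D UC supermere, and MER65C_MER65-int_MER101, lower in 2D UC supermere. Each held under 0.1% of ERV counts.

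Within 3D UC edgeR called 0 MER entries in exomere against sEV, beside 4.98% of all features in either direction. It called 0 in supermere against sEV, beside 4.03%. At an unadjusted p under 0.05 there were 20 and 25 MER entries, beside 1795 and 1330 of all 8979 features. DESeq2 called 1 and 4 MER entries. In sum they held 461, 402 and 278 CPM in 3D UC exomere A, B and C, against 267, 414 and 355 CPM in 3D UC sEV, and the groups overlapped. The exomere against sEV count was 1 without 3D UC exomere A. On ERV totals 1 entry was called in each: MER66B_MER66-int, lower in 3D UC exomere and beside 8.95% of all features, and MER74C, higher in 3D UC supermere and beside 4.90%. MER74C, an ERVL LTR of 177 loci, took 0.115 and 0.988% of ERV counts in 3D UC supermere, against a mean of 0.00369% in 3D UC sEV.

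Whether the exomere against sEV change differed between cultures was tested directly. edgeR called 0 MER entries for that difference, beside 0.846% of all features, and DESeq2 called 0. At an unadjusted p under 0.05 edgeR had 31 of the 218 MER entries, beside 1828 of all 8979 features. For the supermere against sEV change edgeR called 0, beside 1.20%, and DESeq2 called 2. Here 40 of the 218 were at an unadjusted p under 0.05, beside 1391 of all 8979 features. Fits of the 4 groups alone called 7 and 11. Both differences share the sEV libraries.

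The FPLC comparison asks how supermere and exomere fractions of the same medium differ. MER entries were lower in supermere. In FPLC supermere against FPLC exomere, 138 of the 218 fell and 0 rose, beside 48.0% of all features that fell. The median log2 fold change was −4.21 over the MER entries and −3.77 over all features. On ERV totals 2 were called, MER31A_MER31-int and MER72B, both higher in FPLC supermere, beside 6.97% of all features. They took 0 to 0.565% and 0 to 0.188% of ERV counts in FPLC supermere, whose libraries held 1061 to 3941 ERV counts. These calls thus rest on few counts. On library totals their log2 fold changes were −0.092 and 2.79, and neither passed. The summed level was 14.1, 69.7, 72.0 and 156 CPM in FPLC supermere A to D, against 535, 1516, 757 and 2053 CPM in FPLC exomere, with no overlap.

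Of the named entries whose ranges did not overlap, MER41A held 0.232, 0.329, 0.138 and 0 CPM in FPLC supermere, against 9.29, 23.1, 20.3 and 34.4 CPM in FPLC exomere (log2 fold change −6.46, SE 1.40, edgeR adjusted p = 0.000104). MER4B_MER4B-int had counts in 1 of 4 FPLC supermere libraries, at 0.183 CPM, against 0.279 to 15.7 CPM in FPLC exomere (log2 fold change −7.38, SE 1.77, edgeR adjusted p = 0.000557). MER57B2 had counts in 1 of 4, at 0.506 CPM, against 6.44 to 29.8 CPM in FPLC exomere (log2 fold change −6.05, SE 1.61, edgeR adjusted p = 0.00209).

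MER21C and MER21A (edgeR adjusted p = 0.000979) also fell in FPLC supermere. MER21C held 2.77 ± 1.68 CPM in FPLC supermere, against 64.2 ± 55.5 CPM in FPLC exomere (SD, n = 4 each), a log2 fold change of −4.54 (SE 1.00, edgeR adjusted p = 0.000144). The ranges overlapped because FPLC exomere A had 0 CPM of it. Of the 11 ERVK entries called, MER11B had −4.07 (SE 1.33, edgeR adjusted p = 0.0111) on library totals and 0.37 on ERV totals, so its sign depended on the scaling.

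The count of 138 was 81 without FPLC supermere A, whose total of 12958289 counts held 183 MER counts. rRNA took 56.8% ± 35.0 of the counts in FPLC supermere, against 26.2% ± 11.6 in FPLC exomere (SD, n = 4 each), and its part in the result was not tested. With TMM factors 1 entry was called, and DESeq2 called 12. A fit of these 8 libraries alone called 23.

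Against the ultracentrifuged exomere of the same culture, FPLC exomere held more MER counts. In FPLC exomere against 3D UC exomere, 16 entries rose and 0 fell, beside 10.6% of all features that rose. MER entries had a median log2 fold change of 1.71 and all features one of 1.85. The summed level was 535 to 2053 CPM in FPLC exomere, against 278 to 461 CPM in 3D UC exomere, with no overlap. Of the 16, MER66B_MER66-int was the 1 whose ranges did not overlap, with 4.51, 9.43, 1.50 and 4.02 CPM in FPLC exomere A to D, against 0 CPM in the 3 libraries of 3D UC exomere (edgeR adjusted p = 0.00690).

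MER4C, MER61B, MER110A and MER41G were among the 16 and were at 0 in 3D UC exomere as well. Of these, MER4C had 0 to 12.1 CPM in FPLC exomere (edgeR adjusted p = 0.00719). MER110A had 0 to 5.58 CPM there, MER61B 0 to 13.4 with a mean of 3.76 and MER41G 0 to 9.27 with a mean of 2.32. The highest library thus carried most of the MER61B and MER41G means. The count of 16 was 0 without 3D UC exomere C, which had counts for 60 entries, 1 without 3D UC exomere B, 10 without FPLC exomere B and 28 without FPLC exomere A. On ERV totals 7 entries were called, 5 higher and 2 lower, beside 7.43% of all features. The 2 lower were MER4E1 and MER21C_MER21B_MER21-int.

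Gradient pools 9_10 and 12 were each set against 6_7, and not against each other. In gradient pool 9_10 against gradient pool 6_7, 162 of the 218 entries rose and 0 fell, beside 42.3% of all features that rose. Of the 218 entries, 137 had no count in gradient pool 6_7 and so could not fall. The median log2 fold change was 7.18 over the MER entries and 5.32 over all features. As ratios of counts pooled by group, with values under 3 counts raised to 3, the MER median was 5.31. That median leaves out 64 entries at or under 3 counts in both groups. The summed level was 4999, 7372, 1728 and 1506 CPM in gradient pool 9_10 A to D, against 52.6, 47.2, 50.8 and 47.3 CPM in gradient pool 6_7.

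Some named entries were at 0 throughout gradient pool 6_7. MER39, an ERV1 LTR with 2407 loci, had 102, 102, 61.7 and 43.1 CPM in gradient pool 9_10 and 0 CPM in gradient pool 6_7, at least 228-fold higher (edgeR adjusted p = 1.98e-07). MER31B had 83.6, 138, 37.0 and 32.3 CPM in gradient pool 9_10 and 0 CPM in gradient pool 6_7, at least 200.4-fold higher (edgeR adjusted p = 2.43e-07). MER68 had 53.0, 409, 12.3 and 10.8 CPM in gradient pool 9_10, so that B alone carried most of its mean, and was at least 229.5-fold higher than in gradient pool 6_7 (edgeR adjusted p = 2.74e-08).

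The abundant LTRs rose with the rest. MER21C rose by 6.85 on the log2 scale (SE 1.14, edgeR adjusted p = 3.99e-07) and MER52A by 7.27 (SE 1.19, edgeR adjusted p = 2.22e-07). MER41B rose by 4.14 (SE 1.32, edgeR adjusted p = 0.00866) and MER57A-int by 4.34 (SE 1.67, edgeR adjusted p = 0.0280), but on ERV totals both had log2 values below 0, at −1.81 and −1.58, and did not pass.

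On ERV totals 5 entries were called in gradient pool 9_10 against gradient pool 6_7, beside 14.4% of all features. The MER median there was 5.02, with 158 entries above 0 and 43 below, against 0.00 over all features. It includes the 137 entries without a count in gradient pool 6_7. MER31B, MER39 and MER68 were higher in gradient pool 9_10, and MER54B and MER4C_MER4-int were lower. MER54B took 0 to 0.441% of ERV counts in gradient pool 6_7, with a mean of 0.110%, so its highest library carried that mean. On library totals MER54B did not pass (log2 fold change −4.31, edgeR adjusted p = 0.645). MER4C_MER4-int took at most 0.0677% of ERV counts in gradient pool 9_10, against 0.716 to 3.88% in gradient pool 6_7 (log2 fold change −5.69 on ERV totals, SE 1.32, edgeR adjusted p = 0.000240). In CPM its levels overlapped, with 10.2, 13.3, 0 and 5.38 CPM in gradient pool 9_10 and 5.31, 2.22, 10.9 and 11.4 CPM in gradient pool 6_7. These CPM rest on 5, 1.5, 0 and 1 counts in gradient pool 9_10 and on 5, 4.2, 14 and 44 counts in gradient pool 6_7, so they do not show that the level was alike.

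Depth runs with this contrast, since gradient pool 9_10 libraries held 81079 to 490374 counts in all, against 940808 to 3860718 in gradient pool 6_7. The MER counts themselves were 140 to 2452 per library in gradient pool 9_10 and 49.5 to 182.5 in gradient pool 6_7. lncRNA took 4.62% ± 2.89 of the counts in gradient pool 9_10, against 1.12% ± 0.402 in gradient pool 6_7 (SD, n = 4 each). MER counts per lncRNA count were 0.0799 ± 0.0102 in gradient pool 9_10, against 0.00512 ± 0.00262 in gradient pool 6_7. The part of depth and of lncRNA in the result was not tested. With TMM factors 39 entries were called, with DESeq2 58 and with these 8 libraries alone 17.

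Gradient pool 12 stayed near gradient pool 6_7. In gradient pool 12 against gradient pool 6_7, 1 entry rose, MER31B, beside 1.11% of all features that rose. MER31B had 0, 0, 1.68 and 7.56 CPM in gradient pool 12 A to D and 0 CPM in gradient pool 6_7, so the ranges overlapped (edgeR adjusted p = 0.0161). The call was lost without gradient pool 12 D, gradient pool 6_7 B or gradient pool 6_7 D. The summed level was 119, 36.5, 118 and 97.8 CPM in gradient pool 12, against 47.2 to 52.6 CPM in gradient pool 6_7. Its mean was 1.88 times as high in gradient pool 12, with ranges that overlapped. DESeq2 called 18 entries.

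On ERV totals 3 entries were called between these pools, beside 8.98% of all features. MER31B was higher in gradient pool 12, and MER4C_MER4-int and MER65-int were lower. MER65-int, an internal entry of 205 loci, was at 0 in all 4 libraries of gradient pool 12 and at 2.13, 2.91, 4.27 and 1.04 CPM in gradient pool 6_7.

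The last comparison sets a gradient pool beside the ultracentrifuged vesicles of the same culture. In gradient pool 6_7 against 3D UC sEV, 13 MER entries fell and 0 rose, beside 3.36% of all features that fell. The median log2 fold change was −3.57 over the MER entries and −2.23 over all features. As ratios of counts pooled by group, with values under 3 counts raised to 3, the MER median was −1.47. That median leaves out 61 entries at or under 3 counts in both groups. The summed level was 47.2 to 52.6 CPM in gradient pool 6_7, against 267 to 414 CPM in 3D UC sEV. The ranges of the 13 entries did not overlap.

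MER31B had 0 CPM in gradient pool 6_7, against 8.19, 9.04 and 13.5 CPM in 3D UC sEV A, B and C, at least 26.5-fold lower (edgeR adjusted p = 0.000504). MER52A had 1.17 ± 1.36 CPM in gradient pool 6_7 (SD, n = 4), against 18.1 ± 1.75 CPM in 3D UC sEV (SD, n = 3), a log2 fold change of −4.01 (SE 1.09, edgeR adjusted p = 0.0128). MER39, MER68, MER41A, MER89, MER52C, MER77B, MER74B, MER72 and MER92B were at 0 in gradient pool 6_7, and MER21B and MER50_MER50-int had counts there in 1 library each.

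Leaving out any library but 3D UC sEV A moved the count of 13 by over 1.5 times. It was 1 without gradient pool 6_7 D, 3 without C, 4 without A and 8 without B, and 4 and 6 without 3D UC sEV B and C. On ERV totals the MER median was −4.70, against −0.45 over all features, and includes the 137 entries at 0 in gradient pool 6_7. On that scaling 2 entries were called, beside 3.72% of all features: MER31B, lower in gradient pool 6_7, and MER4C_MER4-int, higher. MER4C_MER4-int averaged 2.17% of ERV counts in gradient pool 6_7, against 0.0548% in 3D UC sEV (log2 fold change 5.31 on ERV totals, SE 1.39, edgeR adjusted p = 0.00966). On library totals the same entry had a log2 fold change of 2.83 (edgeR adjusted p = 0.315).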

How the data were processed

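Small RNA libraries of 11 groups were analysed. The deposited table holds 1 expected count per feature and library. Per the submitters' processing notes, the authors used cutadapt 4.5, FastQC 0.12.1, Bowtie 1.3.1 and GRCh38.p13. The counting tool and repeat annotation are not given in the sources used here. Members were matched by name. The members, the lists and the tests were chosen with earlier results of these data known.

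Expected counts were rounded for the tests only. Python 3.11.15 and edgeR 4.0.16 in R 4.3.3 were used: filterByExpr with a minimum count of 10 kept 8979 features, glmQLFit (robust) and glmQLFTest were fitted to 37 libraries in 1 model of 11 group means with 26 residual degrees of freedom, and p-values (two-sided) were adjusted over all features. Library totals were the scaling. The biological coefficient of variation was 1.29. A library under 10000 counts was left out. Standard errors were derived from the log2 fold change and its F statistic. Bounds for entries at 0 use 3 counts over the group total and take counts as independent reads. The fit was run on simulated data with a smaller biological coefficient of variation than 1.29. That run does not give its error rates at the spread found here.

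Named entries were the 10 of highest mean CPM, up to 3 per direction and comparison among called entries with at least 10 CPM and ranges that do not overlap, and entries of families with textbook roles; others named were chosen after their values were seen. Classes were assigned by name. GENCODE v29 was used for overlaps. Alternatives were TMM, DESeq2 (1.42.0) size factors, ERV totals, no filter, the DESeq2 test, only the groups compared, the near-empty library kept, a replicate block and leaving out each library.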

Additional observations from a re-analysis of the deposited data

Results flagged for a closer look

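Within groups of 4 libraries, 6 of 65 sets of values held a library far from the other 3, where chance gives about 1 in 20 for values that are not mostly 0. The MER share of ERV counts in FPLC exomere A was 23.8%, against 19.8 to 20.3% in B, C and D, and that library had counts for 44 entries. MER68 was high in gradient pool 9_10 B at 409 CPM, in FPLC supermere D at 8.79 CPM and in gradient pool 12 A at 3.91 CPM. In gradient pool 6_7 B, MER11C was at 3.17 CPM and MER21B at 1.06 CPM, on 6 and 2 counts, and both were at 0 in the other 3 libraries of that pool. With 3 libraries at 0 any count stands apart, so these 2 say nothing beyond the counts themselves.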

How the results depend on the processing

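The scaling of the libraries moved most counts of called MER entries. The counts below are of MER entries only, without shares over all features. With TMM factors the counts were 7 in 3D against 2D UC exomere, 0 in 3D against 2D UC supermere, 0 and 0 in 2D UC exomere and supermere against sEV, 1 in 3D UC exomere against sEV, 1 in FPLC supermere against exomere, 4 in FPLC against 3D UC exomere, 39 and 6 in gradient pools 9_10 and 12 against 6_7, and 20 in gradient pool 6_7 against 3D UC sEV. With DESeq2 size factors in edgeR they were 7, 0, 1, 4, 45, 12 and 42 for culture in exomere and supermere, the 2 FPLC contrasts and the 3 gradient contrasts. On ERV totals they were 2 and 0 for the culture contrasts in exomere and supermere, 2 in 2D UC supermere, 1 and 1 in 3D UC exomere and supermere against sEV, 2 and 7 for FPLC, and 5, 3 and 2 for the gradient.

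The DESeq2 test called 20, 0, 0, 1, 4, 12, 3, 58, 18 and 54 where edgeR called 127, 1, 1, 0, 0, 138, 16, 162, 1 and 13, and 2 for the supermere difference between cultures. Without the filter edgeR called 46 and 0 for the culture contrasts in exomere and supermere, 0 and 0 within 2D UC, 4 in FPLC against 3D UC exomere, and 0 and 2 for gradient pool 12 against 6_7 and for 6_7 against 3D UC sEV. Fitting only the groups compared gave 57 in sEV between cultures, 70 in supermere between cultures, 73 and 0 in 2D UC, 4 in 3D UC supermere, 23 and 2 for FPLC, 17 for pools 9_10 and 6_7, and 7 and 11 for the differences between cultures. Keeping the near-empty library gave 1 in 3D UC exomere against sEV and 2 in gradient pool 12. The causes were not tested.

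Leaving out each library gave 9 to 122 in exomere and 0 to 60 in supermere between cultures, 0 to 0 and 0 to 1 in 2D UC, 0 to 1 in 3D UC exomere, 81 to 158 and 0 to 28 for FPLC, and 123 to 156, 0 to 1 and 1 to 12 for the gradient. Rounding the counts and summing them over libraries kept every group's summed CPM and share within 1 SD. Without library B or C, 3D UC supermere had 58.8 or 338 CPM, against 198 CPM with both.

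Of the named entries called, 18 turned sign on ERV totals. In 3D against 2D UC exomere they were MER11C 0.92, MER21A 0.58, MER21C 0.012, MER39 0.28, MER4A1 0.11, MER52A 0.32, MER57A1_MER57-int 0.067 and MER61A 0.31. In FPLC supermere against exomere they were MER11A 0.19, MER11B 0.37, MER11C 0.14, MER4A1 0.19 and MER50 0.039. In gradient pool 9_10 against 6_7 they were MER11B −0.50, MER21A −0.10, MER41B −1.81, MER4A1 −0.85 and MER57A-int −1.58.

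Replicate letters did not pair the libraries: in no comparison were all same-letter correlations above 0.1, and in none of 3 or more pairs did every library correlate best with its own letter. With a replicate block the counts were 6 in FPLC against 3D UC exomere and 20 in gradient pool 6_7 against 3D UC sEV, and the others stayed within 1.5 times. Depth limits the gradient most, where single entries rest on a few counts.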
